A study of Mus musculus with 12 samples.

Results

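Secondary plasmablasts with a conditional Myb knockout were compared with control secondary plasmablasts, using 4 of the 12 libraries in the study. All genes with enough counts to be tested were included, which were 13131 of the 27179 gene IDs counted. The control plasmablasts carried floxed Myb alleles with no cre (Myb fl/fl), and the knockout plasmablasts carried the same alleles with 1 CD23-cre transgene (Myb fl/fl CD23-cre T/+). All mice were C57BL/6, had been immunised with the hapten-carrier conjugate NP-KLH in alum and then boosted with NP-KLH in PBS, and the plasmablasts were sorted on day 5 after the boost. Each group had 2 libraries of polyA RNA, and by the labels each library was a pool of mice of both sexes. Control pools 1 and 2 held 6 and 7 mice, and knockout pools 1 and 2 held 5 and 4 mice. The labels date same-numbered pools alike, so control 1 and knockout 1 form the first pair and control 2 and knockout 2 the second. The controls had no cre, so an effect of the cre transgene and an effect of Myb loss cannot be told apart. CD23-cre is driven by the promoter of Fcer2a, a gene of mature B cells. The surface markers of the sort, and whether it selected NP-binding cells, are not stated by any source at hand. The remaining libraries were germinal centre B cells, from Myb knockout and control mice on day 12 and from a separate Moz knockout experiment on day 7.

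Plasmablasts are dividing, antibody-secreting cells that arise from activated B cells, and after a boost many of them arise from memory B cells. They switch on Prdm1, Irf4 and Xbp1, enlarge their secretory apparatus, and then die or move to bone marrow, gut or inflamed tissue with the help of integrins and chemokine receptors. c-Myb, the product of Myb, is a DNA-binding transcription factor that is best known in blood progenitors and early lymphocytes. In C57BL/6 mice the antibody response to NP is known for its use of the heavy chain segment V186.2, now named Ighv1-72, with the D segment Ighd1-1 and the J segment Ighj2, paired with a lambda 1 light chain and often switched to IgG1.

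The 4 libraries held 24775050 and 20103169 counts (control) and 19027311 and 22259138 counts (knockout). Immunoglobulin genes took 65.0% to 70.0% of those counts. Levels are given as CPM, counts relative to library size, after scaling by the trimmed mean of M values (TMM CPM). The scaling factors of the plasmablast libraries were 0.392 to 0.450, so the levels of all genes in a library add up to more than those of plain CPM. The pools match their label: the plasma cell factors Prdm1 and Xbp1 stood at 173 to 292 and 5072 to 5661 TMM CPM, against 3.21 to 21.8 and 111 to 233 in the germinal centre libraries. The germinal centre gene Bcl6 stood at 0.753 to 2.21, against 105 to 139. Markers of other cells were measured in each pool. The summed level of 16 myeloid markers (10 of them tested) was 395 and 461 in controls and 376 and 441 in knockouts, with Mpo and Elane at 0 counts. The 14 T cell markers (12 tested) summed to 10.1 and 12.8 against 13.8 and 14.8, and the 10 naive B cell markers to 136 and 341 against 225 and 238. The 12 NK and plasmacytoid dendritic cell markers (9 tested, with Ncr1 and Gzmb at 0) summed to 438 and 543 against 420.0 and 590.3. The 11 erythroid and platelet markers (3 tested, Pf4 and Gp9 at 0) summed to 3.59 and 2.01 against 2.73 and 2.87. The 12 stromal markers (3 tested, Pdgfra and Kdr at 0) summed to 81.3 and 54.7 against 71.8 and 54.7. None of these markers passed a test between the groups, and the sums overlap except for the T cell list. Their part in the results was not tested. The mixture of sexes also differed: the female-specific RNA Xist stood at 12.3 and 27.1 in controls and 1.30 and 30.4 in knockouts, and the Y-linked Ddx3y at 96.0 and 30.9 against 103 and 12.4. The labels give 3 males and 3 females for control pool 1, and 3 males and 2 females for knockout pool 1. The low Xist of knockout pool 1 does not follow from these labels, and its cause was not tested.

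Myb itself (gene 17863, chr10:21124930-21160984, mm10) was low in all 4 pools. It had 46 and 37 counts in the controls and 24 and 27 in the knockouts, or 4.13 and 4.64 against 3.11 and 3.10 TMM CPM. Both knockout pools lay below both control pools, but by a log2 fold change of only -0.49 (SE 0.29), which did not pass the test (adjusted p = 1, edgeR; 0.566 with pairs). Counts over the whole gene include exons outside a deleted stretch, and no source at hand states the floxed exons, so this value does not check the deletion.

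A model of all 12 libraries without pairs called 5 genes at an adjusted p under 0.05 in edgeR's quasi-likelihood test, or 0.0381% of the genes tested. At an unadjusted p under 0.05 it had 496. The called genes were the integrin gene Itgb7 and the heavy chain segments Ighv1-72, Ighv1-62-3 and Ighv1-71, all lower in the knockout, and the kappa segment Igkv5-45, which was higher. The same model with the replicate number as a block, which compares knockout with control within a pair (the paired fit), called 76 genes, or 0.579%. Of these, 28 rose (0.213% of tested genes; 21 of them not immunoglobulin genes) and 48 fell (0.366%; 32 not immunoglobulin genes). The fit without pairs was set as the main test and the paired fit as its alternative. Of the 28 and the 48, only 1 and 4 were also called without pairs. The other calls rest on the pairs, and their adjusted p without pairs could be high, as for Cd93 (0.952, edgeR) and Fcer1g (0.842, edgeR). Hereafter, "rose" and "fell" refer to the paired fit, and a log2 fold change with 1 adjusted p comes from it. For 26 of the 28 and 46 of the 48 genes the pools of the groups did not overlap. Over all tested genes, 13.6% had both knockout pools above both control pools and 11.6% had both below. With pairs, DESeq2 also called 27 of the 28 and 48 of the 48, and limma-voom 21 and 35. In pools of cells, a change in the share of cells that express a gene and a change in RNA per cell cannot be told apart.

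**Figure D1:**
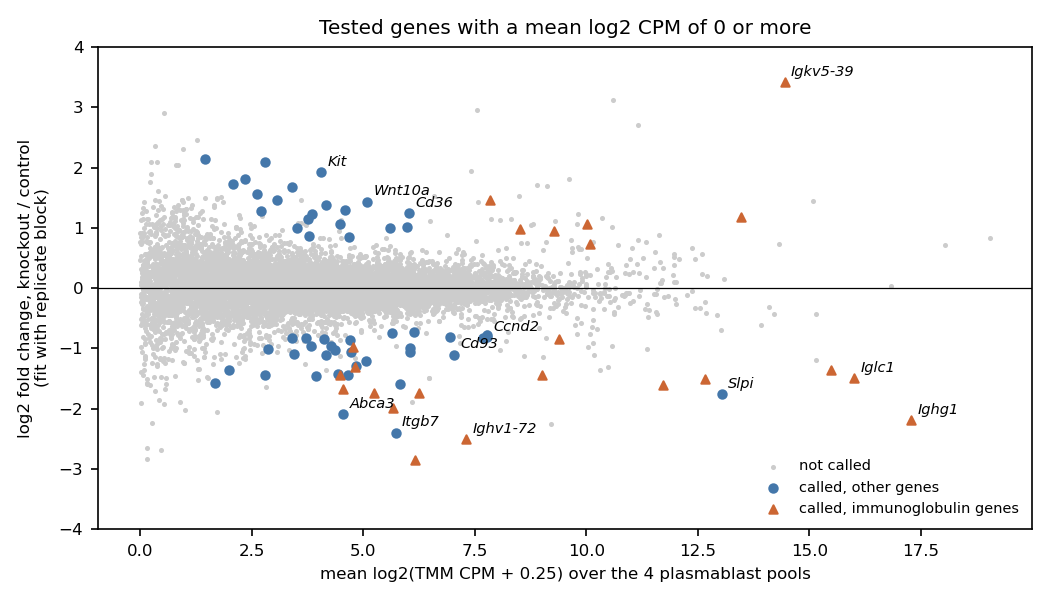
Log2 fold change of knockout over control in the paired fit (vertical axis) against the mean log2 level over the 4 plasmablast libraries (horizontal axis, TMM CPM + 0.25), 1 point per gene for 11263 genes, with called genes in colour. The cloud of genes is centred near 0. Among the 28 genes that rose and the 48 that fell, Igkv5-39 is highest at 3.42 and Itgb7 lies at -2.40. Some genes that were not called also lie far from 0, such as Igkv13-85 at 3.12. The 1868 tested genes with a mean level below 0 are not drawn, and none of them was called.

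The integrin beta 7 gene Itgb7 had the lowest adjusted p among genes that are not immunoglobulin genes. Its product pairs with the alpha 4 chain to bind MAdCAM-1 in gut vessels, or with the alpha E chain to bind E-cadherin. Itgb7 (gene 16421, chr15:102215994-102233405, minus strand, mm10) stood at 111 and 132 TMM CPM in the control pools and 19.3 and 27.1 in the knockout pools. The groups are far apart, with the higher knockout pool under the lower control pool in both pairs. The log2 fold change was -2.39 (SE 0.30; adjusted p = 0.0167, edgeR) without pairs and -2.40 (SE 0.14; adjusted p = 1.23e-05) with pairs. Without pairs the call was lost when any 1 of the 4 pools was left out (adjusted p from 0.0661 to 0.255, edgeR), when immunoglobulin genes were left out (0.0680) and with the 8 Myb libraries alone (0.141). Over all 17 settings the log2 fold change stayed negative and the adjusted p ran from 1.79e-133 to 0.437.

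The 300 bases around the start site of Itgb7 in the RefSeq table (GRCm38.p6, chr15:102231886-102232185, minus strand, 250 bases before and 50 after the start) are shown with those of Abca3, described next (chr17:24351773-24352072, plus strand), since these are the strongest falls outside the antibody genes. The start used for Itgb7 lies inside the gene interval given above, and that for Abca3 inside its own interval (chr17:24351921-24410204). Capitals mark the letters AACNG, the short core of the Myb recognition motif, on either strand.
Itgb7 promoter: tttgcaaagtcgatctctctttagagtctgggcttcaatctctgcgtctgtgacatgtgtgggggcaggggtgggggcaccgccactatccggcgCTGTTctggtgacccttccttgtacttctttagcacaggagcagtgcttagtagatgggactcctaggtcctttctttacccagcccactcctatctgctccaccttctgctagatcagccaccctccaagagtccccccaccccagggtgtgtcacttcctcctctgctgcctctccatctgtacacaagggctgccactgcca
Abca3 promoter: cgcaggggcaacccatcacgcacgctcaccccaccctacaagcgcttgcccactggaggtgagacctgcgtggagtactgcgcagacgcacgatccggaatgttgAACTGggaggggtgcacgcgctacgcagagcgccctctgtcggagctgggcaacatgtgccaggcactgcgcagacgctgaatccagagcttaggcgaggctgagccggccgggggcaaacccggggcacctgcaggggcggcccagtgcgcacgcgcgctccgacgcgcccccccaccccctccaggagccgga
Each has 1 match, 155 bases before the start in Itgb7 and 145 before it in Abca3. Matches are common: AACNG was in 78.3% of 9824 promoters of tested genes, in 18 of 22 promoters of genes that fell and in 10 of 13 of genes that rose. The longer form TAACNG was in 19.1% of all promoters, 1 of the 22 and 2 of the 13. The promoters of Slpi and Kit in this table had neither form.

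Of 15 integrin genes tested, Itgb7 was the only one called, against 0.579% of all tested genes. Of the 15, 4 had a positive estimate, and the median log2 fold change was -0.18, against 0.00 over all tested genes. In 6 of them both knockout pools lay below both control pools and in 1 both lay above, against 11.6% and 13.6% of all tested genes. Itga4, the alpha 4 partner, stood at 590 and 321 TMM CPM in controls and 395 and 235 in knockouts. It was lower in both pairs, but the groups overlap (log2 fold change -0.52, adjusted p = 0.198, edgeR with pairs). Itgb2, the beta 2 chain, was at 486 and 395 against 309.5 and 309.7, with no overlap (-0.50, adjusted p = 0.131). Itgb1 was level, at 132 and 128 against 127 and 132, and Itgal, the alpha L chain, had -0.18 (adjusted p = 0.811). Itgae, the alpha E partner, was near the limit of detection at 0.359 to 1.69 TMM CPM. Of 23 tested genes for homing receptors and their ligands, none was called, and 11 estimates were positive. Cxcr4, the receptor for the bone marrow chemokine CXCL12, stood at 222 and 250.1 against 162 and 206 (-0.36, adjusted p = 0.239). S1pr1, the receptor for exit into blood, was at 25.8 and 19.6 against 13.0 and 13.8 (-0.75, adjusted p = 0.171), and Ccr10, a mucosal homing receptor, at 16.6 and 25.4 against 9.99 and 10.9 (-0.98, adjusted p = 0.0963). All 3 were lower in both knockout pools without passing the test. Of the 23 genes, 7 had both knockout pools below both control pools and 5 had both above. Over all tested genes these shares were 11.6% and 13.6%. The median log2 fold change of the 23 was -0.06. Ccr9, a gut homing receptor, overlapped between groups at 6.65 and 7.03 against 7.79 and 4.59.

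Outside the antibody loci, 32 genes fell, Itgb7 among them. Abca3, a lipid transporter of lysosome-related organelles, stood at 59.9 and 38.2 TMM CPM in controls and 13.9 and 9.07 in knockouts. Every knockout pool was below every control pool, with a log2 fold change of -2.09 (SE 0.14, adjusted p = 2.87e-05, edgeR with pairs; -2.10 and 0.0727 without). Slpi, a secreted protease inhibitor, was among the most abundant transcripts outside the antibody genes, at 12695 and 18924 against 4318 and 4809.8. The gap between the groups exceeds the spread in either (-1.77, SE 0.19, adjusted p = 0.00138; 0.291 without pairs). Cd93, a surface protein of early B cells and of maturing plasma cells, was at 197 and 189 against 100.3 and 80.2 (-1.10, SE 0.15, adjusted p = 0.00632). Siglecg, an inhibitory sialic acid receptor of B cells, was at 41.4 and 29.7 against 14.4 and 11.9 (-1.42, SE 0.13, adjusted p = 0.000401). Thbd, which encodes thrombomodulin, was at 87.2 and 104 against 48.7 and 42.3 (-1.07, adjusted p = 0.00609).

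Pik3r5, a regulatory subunit of the gamma form of phosphoinositide 3-kinase, stood at 40.8 and 47.2 TMM CPM against 18.3 and 17.7 (log2 fold change -1.29, adjusted p = 0.00582, edgeR with pairs). Ccnd2, the gene of the G1 cyclin D2, stood at 299 and 285 against 163 and 169, which are tight groups with no overlap (-0.82, SE 0.15, adjusted p = 0.0425). Cdc14b, a dual-specificity phosphatase, was at 26.2 and 25.6 against 12.3 and 11.7 (-1.11, adjusted p = 0.00582). Pycard, the inflammasome adaptor ASC, was higher in the second pair than in the first, at 130.3 and 202 against 70.6 and 122, and was lower in the knockout of each pair (-0.81, adjusted p = 0.00871). Nucb2, a calcium-binding protein, went from 87.1 and 99.4 to 40.6 and 53.6 (-0.99, adjusted p = 0.00376), and Inka1, an inhibitor of the kinase PAK4, from 20.7 and 30.2 to 6.62 and 12.2 (-1.46, adjusted p = 0.0144). Slc16a5, a monocarboxylate transporter, went from 49.9 and 51.2 to 26 and 18.4 (-1.20, adjusted p = 0.0109). Lower in level were Ehd3, an endocytic recycling protein, at 9.97 and 12.4 against 5.32 and 2.98, and Gmfg, an actin regulator, at 4.13 and 6.40 against 1.04 and 2.52. Faxc, whose function is little known, was at 48.1 and 35.4 against 15.2 and 15.1 (-1.45, adjusted p = 0.00299). Atp11a, a phospholipid flippase, fell by 1.36 on the log2 scale. The falls below 1 on this scale included Reln (-0.83), Scd1 (-0.73), the fatty acid desaturase, Itpr1 (-0.85), a calcium channel of the endoplasmic reticulum whose groups overlap, and Bcat1 (-0.82), an aminotransferase of branched-chain amino acids. The B lineage gene Vpreb3 (-1.03) and the lymphocyte GTPase gene Gimap7 (-1.09) fell too, as did the adaptor gene Lime1 (-0.97) and the reader of acetylated histones Cecr2 (-1.01).

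**Figure D2:**
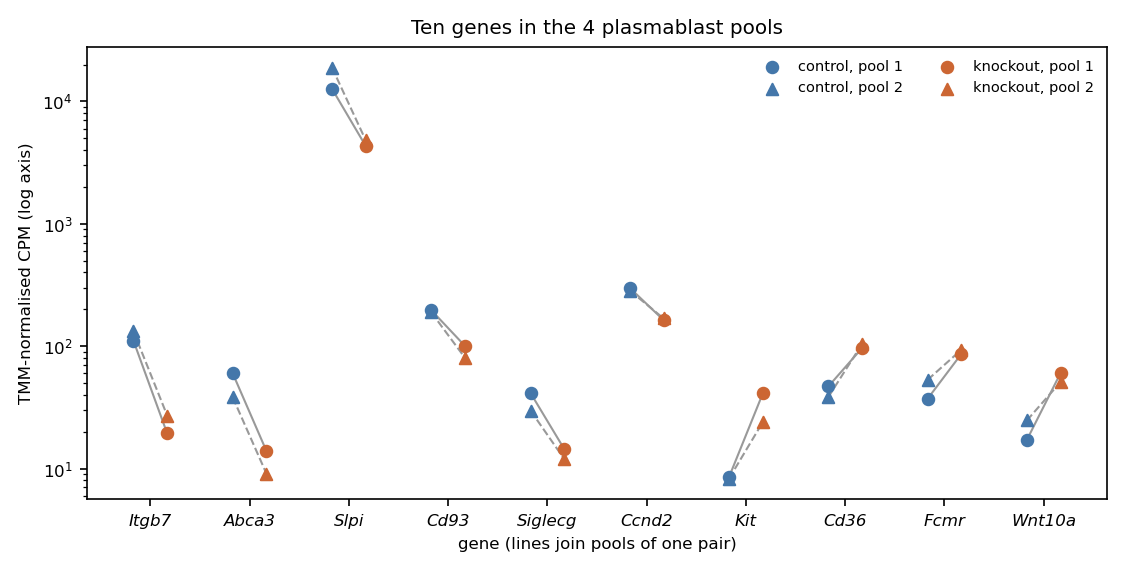
Level of 10 genes in each plasmablast pool (TMM CPM, log axis), with a line joining the control and the knockout pool of a pair. Itgb7, Abca3, Slpi, Cd93, Siglecg and Ccnd2 are lower in both knockout pools, and Kit, Cd36, Fcmr and Wnt10a are higher in both, as at 8.53 and 8.28 against 41.1 and 24 for Kit.

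Outside the antibody loci, 21 genes rose. Kit, the stem cell factor receptor and a reported c-Myb target in progenitors, stood at 8.53 and 8.28 TMM CPM in controls and 41.1 and 24 in knockouts. Both knockout pools were well above the controls but differed from each other (log2 fold change 1.93, SE 0.26, adjusted p = 0.00561, edgeR with pairs; 0.25 without). Kit was the only called gene among 19 tested genes reported as c-Myb targets, against 0.579% of all tested genes. That list had a median of 0.10 and 10 positive estimates. In it, Bcl2 stood at 41.6 and 42.9 against 51.7 and 59.4 (0.39, adjusted p = 0.427), and Myc at 12.7 and 13.2 against 11.3 and 8.38 (-0.40, adjusted p = 0.669).

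Cd36, a scavenger receptor that takes up fatty acids, stood at 46.9 and 38.4 TMM CPM against 96.6 and 104 (1.24, SE 0.16, adjusted p = 0.00376, edgeR with pairs). Fcmr, the Fc receptor for IgM, was at 37.2 and 53.1 against 86.4 and 93.5 (1.02, SE 0.13, adjusted p = 0.00455). Wnt10a, a Wnt ligand, was at 17.2 and 24.7 against 60.5 and 51.1 (1.43, SE 0.19, adjusted p = 0.00455). In these 3 genes the knockout pools lie close together and apart from the controls. Fcer1g, the signalling gamma chain of several Fc receptors, rose from 12.4 and 18.6 to 33.2 and 41.4 (1.29, adjusted p = 0.0163), and the adhesion gene Cadm1 from 6.56 and 3.51 to 15.7 and 11.7 (1.46, adjusted p = 0.0164). Cpq, a peptidase, went from 9.70 and 12.3 to 31.0 and 25.7 (1.37, adjusted p = 0.0105), and Fhod3, a formin of the actin cytoskeleton, from 5.57 and 6.02 to 21.7 and 15.5 (1.68, adjusted p = 0.00829). At lower levels, the largest changes were those of Shtn1, from 1.44 and 0.879 to 6.10 and 4.25 (2.15), and Ncald, a neuronal calcium sensor, from 2.51 and 4.02 to 14.3 and 13.0 (2.09). Arl4c, a small GTPase (1.81), Rab11fip4, a Rab11 effector (1.73), and Scamp1, a secretory carrier protein (1.57), rose without overlap. App, the amyloid precursor protein (1.14), Fam3c (1.29), Dsel (1.23), Lrmp (1.00) and the GABA receptor subunit Gabra4 (1.07) rose in both pairs. The smallest rises were those of Serpina3f (1.00), Cdca3 (0.86) and Hsd17b11 (0.85).

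Of 28 tested genes of the plasma cell programme only Cd93 was called, against 0.579% of all tested genes, and the median log2 fold change was 0.01. Prdm1, which encodes Blimp-1, stood at 237 and 173 TMM CPM in controls and 292 and 209 in knockouts, overlapping between groups (0.29, adjusted p = 0.833, edgeR with pairs). Irf4 was at 692 and 538 against 736 and 506 and Sdc1, the syndecan used to sort plasma cells, at 595 and 502 against 606 and 487. In these genes the pools of a pair resemble each other more than the pools of a group. Xbp1, which drives the secretory programme, had -0.05 (adjusted p = 0.971). Tnfrsf17, the survival receptor BCMA, was at 114 and 189 against 152 and 230.4 (0.35, adjusted p = 0.512), and Mcl1, the survival factor downstream of it, at 615 and 641 against 639.7 and 584. None of 27 tested genes of B cell and germinal centre identity was called, with Pax5 at 1.95 to 2.34 and Bcl6 at 0.753 to 2.21 in all 4 pools. None of the 30 tested genes of translocation and secretion was called (median 0.01), nor any of the 28 interferon response genes (0.03) or 20 glycolysis genes (-0.02). The lists of apoptosis and survival (21 tested, median -0.04), cytokine receptors (24, 0.06) and memory B cell genes (16, -0.13) had no called member either. At a call share of 0.579% a list of this size would hold less than 1 called gene, so these counts do not show that the lists were unchanged. No gene was called among 3 tested neighbours of Myb or 7 of Fcer2a, the promoter donor of the cre.

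Some lists leaned to 1 side without any called member. Among 26 genes of the unfolded protein response, 3 had a positive estimate and the median was -0.12; Hspa5, the chaperone BiP, stood at 9027 and 6318 TMM CPM against 5639.9 and 5686. Among 24 genes of G2 and mitosis all 24 estimates were positive, with a median of 0.44, and 14 were higher in both pairs. Among 24 DNA replication genes 21 were positive, with a median of 0.27, and 18 were higher in both pairs. Over all tested genes, 30.3% were higher in both pairs and 29.0% lower in both. Levels of these genes were low, as for Top2a at 38.8 and 37.9 against 46.8 and 63.8 (0.51, adjusted p = 0.196, edgeR with pairs), and Mki67 overlapped at 229 and 162 against 193 and 212. Genes of a cell cycle list move together within a library, so these counts are not independent observations. Among 19 genes of amino acid supply 15 were positive, with a median of 0.20. Among 16 tested genes of the T-bet programme 15 were positive, with a median of 0.37. Tbx21, which encodes T-bet, had 0.988 and 1.63 against 1.95 and 3.21 (0.97, adjusted p = 0.348), and Eomes, its relative, 0.359 and 0.502 against 4.80 and 1.61 (2.91, adjusted p = 0.0963). Cxcr3, a chemokine receptor that T-bet is known to induce, had 25.7 and 29.1 against 31.0 and 50.6 (0.54, adjusted p = 0.483).

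The antibody transcripts differed in class. The shares below are counts of a gene over the counts of its family in the same library; they are not corrected for gene length, so they compare libraries and not genes. Ighm, the constant gene of IgM, took 49.5% and 42.3% of the heavy chain constant counts in controls and 80.2% and 72.9% in knockouts. Ighg1, the constant gene of IgG1, took 36.5% and 40.7% against 7.46% and 8.41%. These shares do not overlap, and the IgG1 share was lower in both knockout pools by more than the whole range within either group. An exact permutation test of 2 against 2 pools cannot go below p = 0.333 (two-sided), the value for each share without overlap. All switched classes together took 54.1% ± 5.10 (SD, n = 2) in controls and 23.4% ± 5.12 in knockouts. The class was not uniform: Ighg2c, for IgG2c, took 2.50% and 2.29% against 4.37% and 8.53%, in the direction opposite to Ighg1. Igha, for IgA, took 5.11% and 7.52% against 1.79% and 3.64%, and Ighg2b 4.92% and 4.68% against 2.64% and 4.19%, both lower without overlap. Ighg3 overlapped, at 1.32% and 2.43% against 3.5% and 2.23% (exact permutation p = 0.667). Ighe, for IgE, took 0.125% and 0.0840% against 0.0537% and 0.0527%.

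Tested as genes among all others, Ighg1 fell by 2.19 on the log2 scale (SE 0.23, adjusted p = 0.00117, edgeR with pairs; -2.20 and 0.109 without), and Ighe fell by 0.85 (adjusted p = 0.0425). Of the 8 heavy chain constant genes these 2 were called, against 0.579% of all tested genes. The remaining ones were not: Ighm had 0.83 (SE 0.21, adjusted p = 0.137), Ighg2c 1.44 (SE 0.28, adjusted p = 0.0614) and Igha -1.19 (adjusted p = 0.121). Ighd, for IgD, was unstable between pools, at 79 and 1305 counts in controls and 437 and 505 in knockouts.

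**Figure D3:**
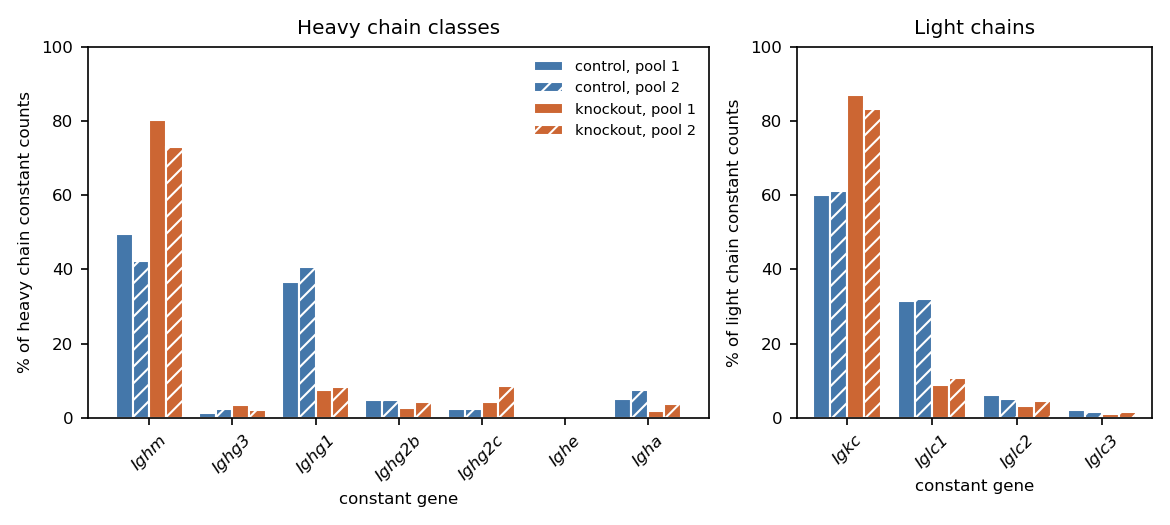
Share of heavy chain constant counts (left) and of light chain constant counts (right) taken by each constant gene, in percent, 1 bar per plasmablast pool with bars starting at 0. Ighm has 49.5% and 42.3% in controls and 80.2% and 72.9% in knockouts, Ighg1 has 36.5% and 40.7% against 7.46% and 8.41%, and Iglc1 has 31.6% and 32.2% of the light chain counts against 8.72% and 10.7%.

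Light chain transcripts held less lambda and more kappa in the knockout pools. Lambda constant genes together took 39.4% ± 0.583 (SD, n = 2) of light chain constant counts in controls and 14.9% ± 2.67 in knockouts. Almost all of this difference was Iglc1, the lambda 1 constant gene, with 31.6% and 32.2% against 8.72% and 10.7%. Iglc2 took 6.2% and 5.16% against 3.24% and 4.58%, and Iglc3 1.98% and 1.65% against 1.01% and 1.47%. Igkc, the kappa constant gene, took the rest, 60.2% and 61.0% against 87.0% and 83.3%. As a gene among all others, Iglc1 fell by 1.49 on the log2 scale (SE 0.20, adjusted p = 0.00462, edgeR with pairs). Its partners in the lambda 1 chain fell by like amounts: Iglv1 by 1.36 (adjusted p = 0.00376) and Iglj1 by 1.5 (adjusted p = 0.00117). Iglc2 and Iglc3 were not called (-0.32 and -0.34), and neither was Igkc (0.72, adjusted p = 0.212).

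The heavy chain segment of the NP response, Ighv1-72, was the segment with the lowest adjusted p. It is printed as the germline reads (GENCODE transcripts cut to the RefSeq gene interval, mm10, chr12:115757984-115758277, minus strand), with the other 2 heavy chain segments called without pairs, Ighv1-62-3 (chr12:115460999-115461292) and Ighv1-71 (chr12:115742213-115742506), both on the minus strand. Capitals mark bases that differ from Ighv1-72.
Ighv1-72: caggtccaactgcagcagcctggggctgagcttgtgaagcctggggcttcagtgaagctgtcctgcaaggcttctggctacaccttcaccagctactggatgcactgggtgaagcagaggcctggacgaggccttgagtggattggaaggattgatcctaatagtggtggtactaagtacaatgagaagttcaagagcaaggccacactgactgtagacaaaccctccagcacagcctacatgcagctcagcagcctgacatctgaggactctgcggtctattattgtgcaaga
Ighv1-62-3: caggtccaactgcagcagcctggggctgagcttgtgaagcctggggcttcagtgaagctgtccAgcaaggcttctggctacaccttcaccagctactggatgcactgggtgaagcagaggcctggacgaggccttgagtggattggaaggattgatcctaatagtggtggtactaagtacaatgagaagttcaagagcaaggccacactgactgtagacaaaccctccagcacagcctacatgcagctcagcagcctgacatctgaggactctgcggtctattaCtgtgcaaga
Ighv1-71: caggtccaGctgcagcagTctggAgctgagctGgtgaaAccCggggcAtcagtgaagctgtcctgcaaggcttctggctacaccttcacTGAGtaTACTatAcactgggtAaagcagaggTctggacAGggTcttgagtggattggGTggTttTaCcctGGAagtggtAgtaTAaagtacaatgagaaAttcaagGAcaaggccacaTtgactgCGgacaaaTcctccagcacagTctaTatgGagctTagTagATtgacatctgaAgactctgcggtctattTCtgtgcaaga
Ighv1-62-3 differs from Ighv1-72 at 2 of 294 bases (99.3% identity) and Ighv1-71 at 49 (83.3%). How reads that match more than 1 segment were counted is not stated by any source at hand, and rearranged genes carry somatic mutations, so counts of Ighv1-72 and Ighv1-62-3 cannot be told apart with certainty.

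Ighv1-72 stood at 403 and 353 TMM CPM in controls and 80.3 and 54.5 in knockouts. All knockout values were far below all control values (log2 fold change -2.49, SE 0.26, adjusted p = 0.0123 without pairs; -2.51, SE 0.15, adjusted p = 1.23e-05 with pairs, edgeR; adjusted p from 9.48e-146 to 0.437 over 15 settings, and 0.0405 to 0.0661 with 1 pool left out, past 0.05 unless knockout pool 1 was the one left out). With the 8 Myb libraries alone and no pairs, the call of Ighv1-72 was lost too (adjusted p = 0.0663, edgeR). Ighv1-62-3 stood at 181 and 205 against 34.3 and 20.4 (-2.82 and adjusted p = 0.0136 without pairs, and -2.85 and 0.00317 with). Ighv1-71 stood at 77.4 and 61.0 against 18.4 and 23.0 (-1.74 and adjusted p = 0.0167 without pairs). The unpaired call of Ighv1-71 was lost with any 1 pool left out (adjusted p from 0.0661 to 0.297, edgeR) and with the 8 Myb libraries alone (0.141), and that of Ighv1-62-3 with any 1 pool but knockout pool 1 left out (0.0405 to 0.0743). Ighv1-72 nevertheless took a small share of all heavy chain variable counts, 0.484% and 0.511% in controls and 0.0712% and 0.0834% in knockouts. Of the other canonical parts, Ighj2 took 50.8% and 46.9% of heavy chain J counts against 33.5% and 35.0% (log2 fold change -0.70, adjusted p = 0.118), and the very short Ighd1-1 was higher in knockouts (1.08, adjusted p = 0.261). Of the 6 genes of the canonical NP antibody 4 fell, Ighv1-72, Iglv1, Iglj1 and Iglc1, against 0.366% of all tested genes.

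The falls among heavy chain variable segments all lay in the Ighv1 family. Of 117 tested Ighv segments 9 fell and 2 rose, against 0.366% and 0.213% of all tested genes. All 11 belong to the 59 tested Ighv1 segments, whose median log2 fold change was -0.37 against -0.06 for all Ighv segments. Beside the 3 above, Ighv1-14 fell by 1.99, Ighv1-70 by 1.75, Ighv1-86 by 1.67, Ighv1-59 and Ighv1-24 by 1.45 each and Ighv1-49 by 1.32 (edgeR with pairs), the last with overlap between groups. Ighv1-75 (1.06) and Ighv1-18 (0.73) rose. The family together took 54.4% and 61.6% of heavy chain variable counts in controls and 44.5% and 48.7% in knockouts. Segments were also ordered by identity to Ighv1-72. The median log2 fold change was -0.25 over the 3 segments at 95% identity or more, -0.50 over 7 segments from 90% to 95%, -0.40 over 29 from 85% to 90%, -0.02 over 18 from 80% to 85%, and 0.19 over 59 below 80%. Near identity did not fix the value of a single segment: Ighv1-53 and Ighv1-64, at 95.2% and 95.6%, had -0.02 and -0.25 and were not called. Over 116 segments Spearman's rho between identity and log2 fold change was -0.283 and Pearson's r -0.331, a description across segments that share libraries and reads.

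**Figure D4:**
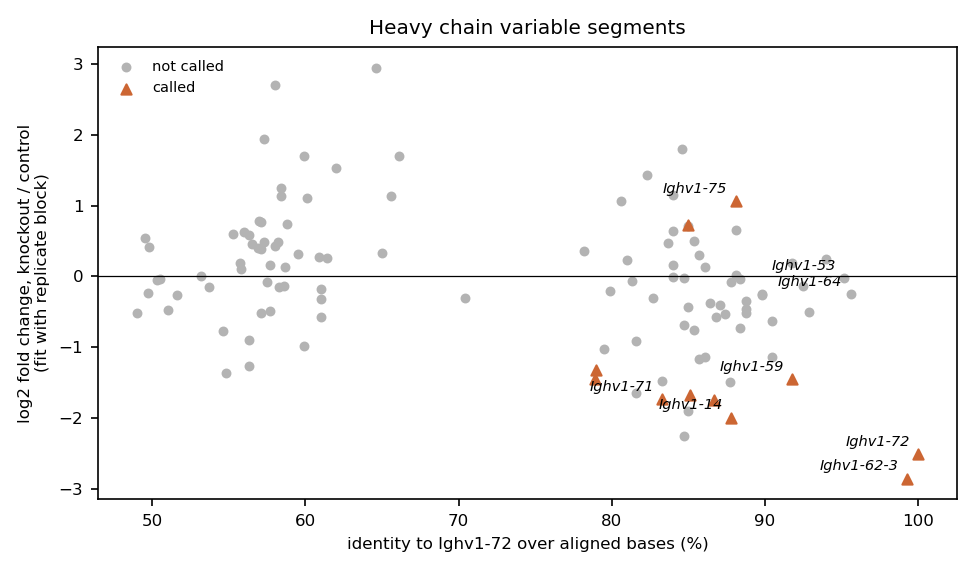
Log2 fold change of each heavy chain variable segment in the paired fit (vertical axis) against its percent identity to Ighv1-72 (horizontal axis), 1 point per tested segment, with called segments as triangles. The falls are spread over identities from below 80% to 99.3%, with Ighv1-72 itself drawn at 100%. Segments at 95.2% and 95.6% identity lie near -0.02 and -0.25.

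Kappa segments changed in both directions. Of 102 tested Igkv segments 4 rose and 2 fell, against 0.213% and 0.366% of all tested genes. The largest of these changes was the rise of Igkv5-39. Its germline sequence (chr6:69900424-69900721, minus strand, mm10) is printed with that of Igkv5-45 (chr6:69775750-69776047, minus strand), the 1 gene called higher without pairs. Capitals mark bases that differ from Igkv5-39.
Igkv5-39: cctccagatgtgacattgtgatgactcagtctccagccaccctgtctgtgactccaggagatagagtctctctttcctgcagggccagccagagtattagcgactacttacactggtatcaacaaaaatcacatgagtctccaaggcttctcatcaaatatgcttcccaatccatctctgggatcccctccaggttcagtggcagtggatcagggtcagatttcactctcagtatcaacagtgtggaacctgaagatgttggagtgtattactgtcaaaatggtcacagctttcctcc
Igkv5-45: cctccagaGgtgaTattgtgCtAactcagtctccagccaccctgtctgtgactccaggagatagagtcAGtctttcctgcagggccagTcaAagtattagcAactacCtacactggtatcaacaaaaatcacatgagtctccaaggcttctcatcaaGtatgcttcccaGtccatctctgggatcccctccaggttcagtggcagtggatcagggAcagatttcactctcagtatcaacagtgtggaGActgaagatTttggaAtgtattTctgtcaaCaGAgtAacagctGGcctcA
The segments differ at 25 bases (91.6% identity). Igkv5-39 stood at 11371 and 4118 TMM CPM in controls and 97706 and 54758 in knockouts. It made up 9.65% and 3.33% of kappa variable counts in controls and 43.8% and 31.7% in knockouts, the highest mean share of any kappa segment in both groups. The controls differed from each other, but both pairs moved the same way (log2 fold change 3.42, SE 0.33, adjusted p = 0.00141, edgeR with pairs, and 3.30 and 0.0890 without). With pairs, DESeq2 and limma-voom did not both call Igkv5-39. Igkv5-45, at a far lower level, stood at 143 and 134 against 412 and 352 (1.46 and adjusted p = 0.0271 without pairs; 1.46 and 6.20e-05 with). Without pairs that call was lost with any 1 pool left out (adjusted p from 0.0661 to 0.338, edgeR) and with the 8 Myb libraries alone (0.141). Igkv3-7 (0.98) and Igkv17-121 (0.95) rose, and Igkv2-112 and Igkv1-35 fell, the first by 1.62. Igkj5 rose as well (1.17, adjusted p = 0.0427), from 33.1% and 36.4% of kappa J counts to 54.5% and 41.1%. Paired DESeq2 and limma-voom did not both call it either.

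The effect in plasmablasts was set against that in the day 12 germinal centre B cells, which have their own Myb knockout and control pools and share no library with the plasmablasts. There the paired fit called 318 genes, or 2.42% of those tested, and the fit without pairs 34 (31 higher and 3 lower), or 0.259%. The shared calls that follow rest on the paired fits. Of the 28 plasmablast rises 16 were also called higher in germinal centre B cells (57.1% of the 28 and 6.02% of the 266 germinal centre rises). They include Cd36, Wnt10a, Cadm1, Fcer1g, App, Shtn1 and Igkv5-39. Cd36, for example, had 1.24 in plasmablasts and 1.29 in germinal centre B cells, and Igkv5-39 had 3.42 and 3.16. Of the 48 falls 6 were shared (12.5% of the 48 and 11.5% of the 52 germinal centre falls): Cdc14b, Cecr2, Ehd3, Igkv2-112, Stac2 and Vpreb3. Of the 13131 tested genes, 266 were called higher and 52 lower in germinal centre B cells. Fewer falls than rises were thus there to be shared, and the 57.1% and 12.5% cannot be compared directly. Cdc14b had -1.11 and -1.07.

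The difference between the effects was tested directly as an interaction. It was called for 1 gene without pairs (0.00762% of those tested, Faxc) and for 71 with pairs (0.541%). Among these were 14 of the 48 falls and 3 of the 28 rises. The falls and rises were chosen by their plasmablast effect, which is part of this difference, so these counts cannot be set against the 0.541%. Itgb7 had -2.40 in plasmablasts and -0.14 in germinal centre B cells, where its level was 25.7 ± 5.29 (SD, n = 2) TMM CPM in controls and 23.8 ± 9.86 in knockouts. The plasmablast controls, at 111 and 132, stood above these levels and the plasmablast knockouts, at 19.3 and 27.1, beside them. The difference was -2.26 (adjusted p = 0.000505, edgeR with pairs). Abca3 differed by -1.87 (adjusted p = 0.00114) and Slpi by -2.19 (adjusted p = 0.00444). Ccnd2 moved in opposite directions, -0.82 in plasmablasts and 0.80 in germinal centre B cells (adjusted p = 0.0266), with a difference of -1.61 (adjusted p = 0.00906). Ighg1 had -2.19 and -0.54, a difference of -1.65 (adjusted p = 0.0440). Fcmr rose in plasmablasts alone by these calls, with 1.02 against 0.00 (difference 1.02, adjusted p = 0.0318). Sex differed too by the labels: the germinal centre control pools held 1 male with 2 females, and 2 females. The germinal centre knockout pools held 2 and 3 females, while every plasmablast pool held both sexes. Sort dates, day, sex and cell type differ together between these experiments, so their parts cannot be told apart.

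**Figure D5:**
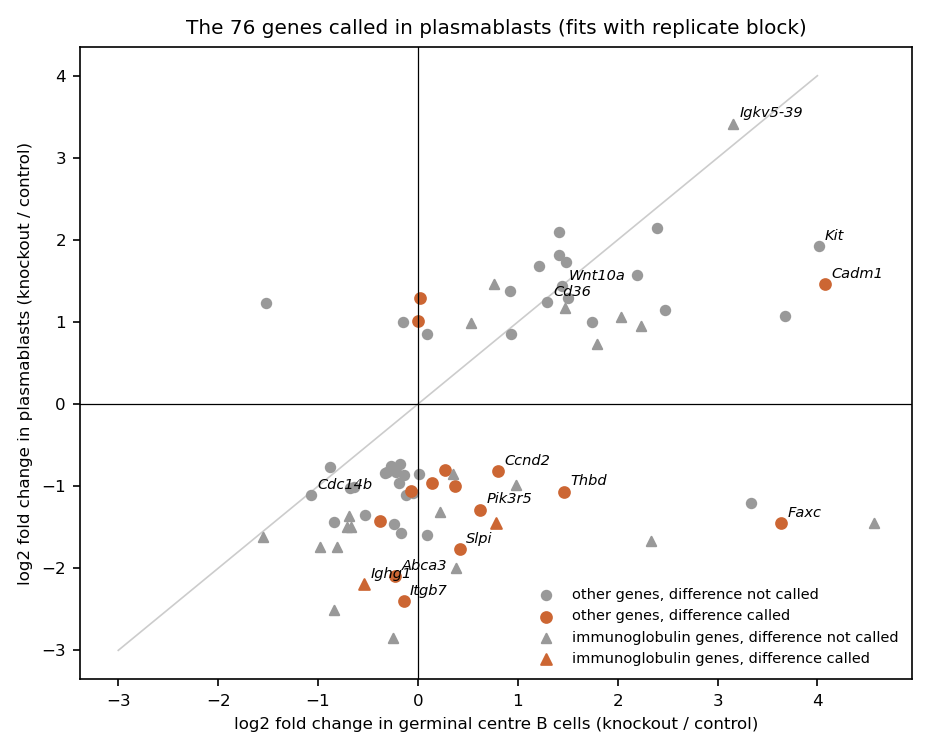
Log2 fold change in plasmablasts (vertical axis; knockout over control, paired fit) against that in germinal centre B cells (horizontal axis) for the 76 genes called in plasmablasts, coloured by whether the difference between the effects was called, with the line of equal effects. Cd36 lies near the line at 1.24 and 1.29, while Itgb7, Abca3 and Slpi lie near 0 or above it in germinal centre B cells at -0.14, -0.23 and 0.42.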

How the data were processed

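The deposited values were raw counts per gene for 27179 Entrez gene IDs, which the authors counted with featureCounts against mm10, per the submitters' processing notes. Not given in the sources used here: aligner, strand, counter version and the handling of reads with several matches. RefSeq gave symbols and mm10 positions. Genes passed filterByExpr (minimum count 10, minimum total 15). One edgeR 4.0.16 quasi-likelihood model (R 4.3.3) with TMM scaling held all 12 libraries as 6 groups, with 6 residual degrees of freedom and a biological coefficient of variation of 0.221; with the replicate number as a block these were 3 and 0.119. Tests were two-sided with Benjamini-Hochberg adjustment over the tested genes and a limit of 0.05. The labels give same-numbered pools the same experiment dates, and deviations of paired plasmablast pools from their group means correlated at 0.453, so the numbers pair the samples. Replicates differed beyond counting noise (chi-square over its degrees of freedom: 80.0 in controls, 96.1 in knockouts). With 2 pools a group, the p-values rest on a spread shared over the 6 groups, germinal centre and Moz libraries included. They do not measure the spread between the plasmablast pools alone. limma 3.58.1 and DESeq2 1.42.0 served as alternatives, and sequences were aligned with Biopython 1.88. Named genes were Myb, the genes called without pairs, up to 12 called genes in each direction outside immunoglobulin loci, the constant genes, up to 10 segments in each direction, up to 4 called members of each of 29 lists, and a set of homing and plasma cell genes; Ccnd2, Cd36, Fcmr, Thbd, Pycard, Nucb2 and the other called genes named were chosen after their values were seen. The comparison and the lists were chosen with earlier results of these data known.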

Additional observations from a re-analysis of the deposited data

Results flagged for a closer look

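The genes here were singled out because the effect of the knockout in plasmablasts differed from that in germinal centre B cells by the interaction test. Values are the plasmablast effect minus the germinal centre effect on the log2 scale, from edgeR with pairs and an adjusted p under 0.05, and come from 2 pools a group. With groups of 2, no test of a single pool against the rest of its group was possible.

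The effect was lower in plasmablasts for Itgb7 (-2.26), Abca3 (-1.87), Slpi (-2.19), Siglecg (-1.05), Thbd (-2.53), Cxcr3 (-2.03) and Cadm1 (-2.62). Cadm1 was higher in the knockout in both cell types, by 1.46 in plasmablasts and 4.08 in germinal centre B cells. For Cxcr3 the germinal centre effect was 2.57 and the plasmablast effect of 0.54 was not called. It was also lower for Ccnd2 (-1.61), Pik3r5 (-1.91), Pycard (-1.08), Lime1 (-1.10), Nucb2 (-1.37) and BC035044 (-0.99), and for Ighg1 (-1.65) and Ighv1-59 (-2.23). It was higher in plasmablasts for Fcmr (1.02) and Fam3c (1.26).

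Faxc was the 1 gene whose difference was called without pairs (-5.10, adjusted p = 0.0145, edgeR), and it was called with pairs as well (-5.08, adjusted p = 0.00136). In germinal centre B cells it stood at 0.110 ± 0.0418 (SD, n = 2) TMM CPM in controls and 1.48 ± 0.130 in knockouts, close to the lower limit of counting, while in plasmablasts it was at 48.1 and 35.4 against 15.2 and 15.1.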

How the results depend on the processing

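The count of called genes in plasmablasts depended on the model. It was 5 without pairs and 76 with the replicate block, 104 with no low-count filter, 50 with DESeq2, 10 with limma-voom, 0 with immunoglobulin genes left out (411 at an unadjusted p under 0.05), 57 with the replicate block and immunoglobulin genes left out, 115 and 67 with DESeq2 and limma-voom with the replicate block, 1 with the 8 Myb libraries, 0 with the 4 plasmablast libraries alone (359 at an unadjusted p under 0.05) and 1015 with those 4 and the replicate block, a fit with very few residual degrees of freedom. With 1 pool left out it ran from 0 to 2. The count of genes whose effect differed between plasmablasts and germinal centre B cells was 1 without pairs, 71 with the replicate block, 136 with no filter, 45 with DESeq2, 0 with limma-voom (406 at an unadjusted p under 0.05), 81 with the replicate block and immunoglobulin genes left out, 121 and 33 with DESeq2 and limma-voom with the replicate block, 0 with the 8 Myb libraries, and 0 to 3 with 1 pool left out. DESeq2's size factors changed neither count. The difference in the Ighg1 share, -30.64 percentage points of heavy chain constant counts, was -17.28 points of all immunoglobulin counts, -11.43 of all counts, and -32.73 to -28.55 with 1 pool left out. That in the Iglc1 share, -22.19 points, was -4.71 and -3.09 with those denominators and -23.17 to -21.20 with 1 pool left out.

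Of 1938 recomputed gene values, 1447 kept their direction and their side of the limit, 426 passed it newly, 29 lost it and 36 changed sign, none of them a gene called in the model without pairs. Ighd turned positive in several settings: 0.39 with the replicate block, 0.85 with limma-voom, 0.75 and 0.038 with DESeq2 and limma-voom with the block, 0.17 with the plasmablast libraries alone and the block. Itgb1, near 0, turned to values of 0.0026 (DESeq2's size factors), 0.0021 (no filter), 0.0026 (DESeq2) and 0.0024 (DESeq2 with the block), and Sdc1 to 0.0032 with DESeq2 and with its size factors; Irf4 turned to -0.0089 in the plasmablast libraries alone with the block. With 1 pool left out in turn, values crossed 0 for Ccr9 (-0.54 to 0.18), Ighd (-1.51 to 3.03), Ighv1-49 (-2.27 to 0.076), Ighv1-53 (-0.20 to 0.16), Ighv1-64 (-0.68 to 0.19), Iglc2 (-0.74 to 0.11), Iglc3 (-0.78 to 0.12), Irf4 (-0.25 to 0.25), Itgae (-0.034 to 1.79), Itgal (-0.36 to 0.030), Itgb1 (-0.044 to 0.052), Mcl1 (-0.075 to 0.015), Mki67 (-0.16 to 0.32), Pax5 (-0.038 to 0.18), Sdc1 (-0.14 to 0.13), Tnfrsf17 (-0.0022 to 0.77) and Xbp1 (-0.11 to 0.024). The cause was not tested. With 2 pools a group, differences at low counts, as for Myb at 24 to 46 counts, were measured with little precision.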

Other observations

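Mitochondrial genes took 1.80% and 0.747% of counts in control pools 1 and 2 and 0.945% and 0.747% in knockout pools 1 and 2. Outside the immunoglobulin genes, 9 of 598 tested genes on chromosome 6 were called (1.51%), namely Fam3c, Gimap7, Itpr1, Cecr2, Cdca3, Ccnd2, BC035044, Bcat1 and Lrmp, against 53 of 12881 over all chromosomes (0.411%), with no test of that difference. The Myb relatives Mybl1 and Mybl2 were at 1.03 to 1.43 and 0.753 to 1.82 TMM CPM in the 4 plasmablast pools; Mybl2 stood at 0.808 and 0.753 in controls and 1.82 and 1.72 in knockouts (log2 fold change 1.17, adjusted p = 0.271, edgeR with pairs).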
